A study of Triticum aestivum with 2 samples.

Results

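Homoeologous group 3 of bread wheat comprises chromosomes 3A, 3B and 3D, the counterparts of the same ancestral chromosome in the A, B and D subgenomes. Its micrococcal nuclease (MNase) hypersensitive sites (MHSs) were taken as all deposited peaks whose sequence name begins with chr3A, chr3B or chr3D. The group held 42969 of the 277119 spikelet MHSs, or 15.5%, and 45119 of the 289446 seedling MHSs, or 15.6%. The 88088 MHSs of the group thus made up 15.5% of the 566565 MHSs in both lists.

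The material was wild-type Chinese Spring, an inbred cultivar without added alleles or treatment. Spikelets were collected at the booting stage, and seedlings at an age given as 10 days in the sample labels and 9 days in the methods. Both tissues were cross-linked, their nuclei were digested with MNase, and DNA fragments of 40 to 100 bp were sequenced, so that reads pile up where DNA is accessible. Each tissue is a mixture of cell types and is represented by 1 list of peaks from 2 merged biological replicates, so no difference between the tissues or the homoeologs can be set against replicate spread and no test was made. Intervals below are 95% intervals that cover counting error only.

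Accessible chromatin is where regulatory proteins reach the DNA, and MHSs mark promoters, enhancers and other regulatory DNA. Wheat chromosomes carry most of their genes towards both ends, while the regions around the centromere are rich in transposable elements and recombine little. Homoeologous chromosomes share most of their gene order, so that the 3 copies can be compared along their length.

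3A and 3D had nearly the same number of MHSs, although 3D is much shorter. 3A held 13836 spikelet and 14587 seedling MHSs, 3B held 15233 and 16253, and 3D held 13900 and 14279. With lengths of 751 Mb for 3A, 831 Mb for 3B and 615 Mb for 3D, taken from the last MHS of each sequence part, the spikelet density was 18.4 MHSs per Mb on 3A, 18.3 on 3B and 22.6 on 3D. In the seedling it was 19.4 on 3A, 19.6 on 3B and 23.2 on 3D. The density on 3D over that on 3A was 1.23 in the spikelet (1.20 to 1.25) and 1.19 in the seedling (1.17 to 1.22). The numbers of MHSs on 3D over 3A had a ratio of only 1.00 in the spikelet and 0.979 in the seedling, against a ratio of 0.820 between the lengths. 3B over 3A had a density ratio of 0.995 in the spikelet (0.972 to 1.02) and 1.01 in the seedling (0.985 to 1.03), so that the counting intervals of both included 1. The DNA covered was likewise largest on 3D, with 0.706% of 3A, 0.703% of 3B and 0.872% of 3D under spikelet MHSs. Seedling MHSs covered 0.801%, 0.798% and 0.967%, so that 3B lay below 3A by this measure although its seedling density was higher.

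Beside the other chromosomes, these densities were neither the highest nor the lowest. 3D ranked 5 among the 21 chromosomes in the spikelet and 3 in the seedling, where the range over the 18 others was 16.1 to 23.8 and 17.1 to 24.5 MHSs per Mb. 3A ranked 16 in the spikelet and 17 in the seedling, and 3B ranked 17 and 15. In every other group, too, the D chromosome was the densest of the 3 homoeologs in both lists. Within its own subgenome, 3D was denser than 2 of the 6 other D chromosomes in the spikelet and 4 of the 6 in the seedling. 3A was denser than 2 of the 6 other A chromosomes in both lists, and 3B than 2 of the 6 other B chromosomes. As a whole, group 3 ranked 5 of the 7 groups in density in both lists, with 19.6 spikelet and 20.5 seedling MHSs per Mb.

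**Figure D1:**
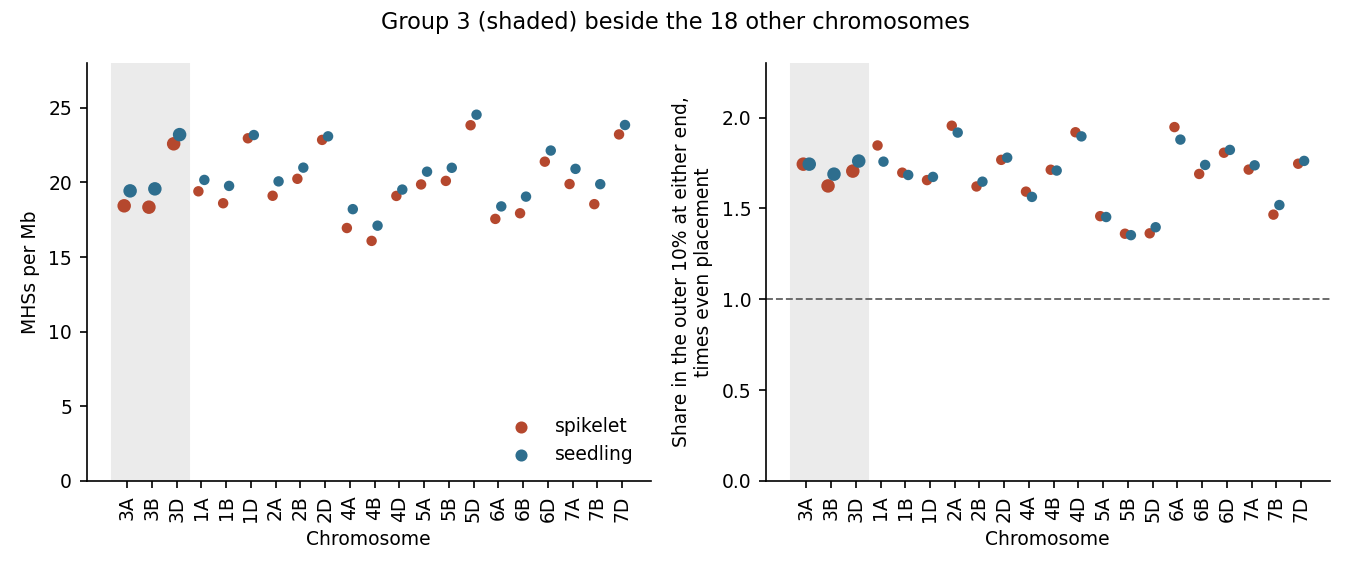
MHSs per Mb (left) and the share of MHSs in the outermost 10% at either end divided by the 20% of even placement (right; dashed line at 1), for each chromosome in the spikelet (red) and the seedling (blue), with group 3 shaded. 3D lies at 22.6 spikelet and 23.2 seedling MHSs per Mb, above 3A and 3B, and all 3 homoeologs lie between 1.62 and 1.76 times even placement.

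Each homoeolog was dense at both ends and sparse in a stretch before its middle. In bins of 10 Mb, the densest spikelet bin was 20 to 30 Mb from the start on 3A with 47.5 MHSs per Mb, 20 to 30 Mb on 3B with 46.8, and 10 to 20 Mb on 3D with 57.3. The sparsest spikelet bins had 3.60, 3.10 and 3.10 MHSs per Mb on 3A, 3B and 3D. The densest bin was therefore 13.2 times as dense as the sparsest on 3A, 15.1 times on 3B and 18.5 times on 3D. In the seedling the range was narrower, at 7.88 times on 3A, 10.2 times on 3B and 10.7 times on 3D, with 6.40, 4.90 and 5.20 MHSs per Mb in the sparsest bins. The spikelet and seedling densities were compared over the full 10 Mb bins of a homoeolog, without the shorter last bin. Their Spearman correlations were 0.988 on 3A (75 bins), 0.966 on 3B (83 bins) and 0.985 on 3D (61 bins), and both lists share the dense ends.

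**Figure D2:**
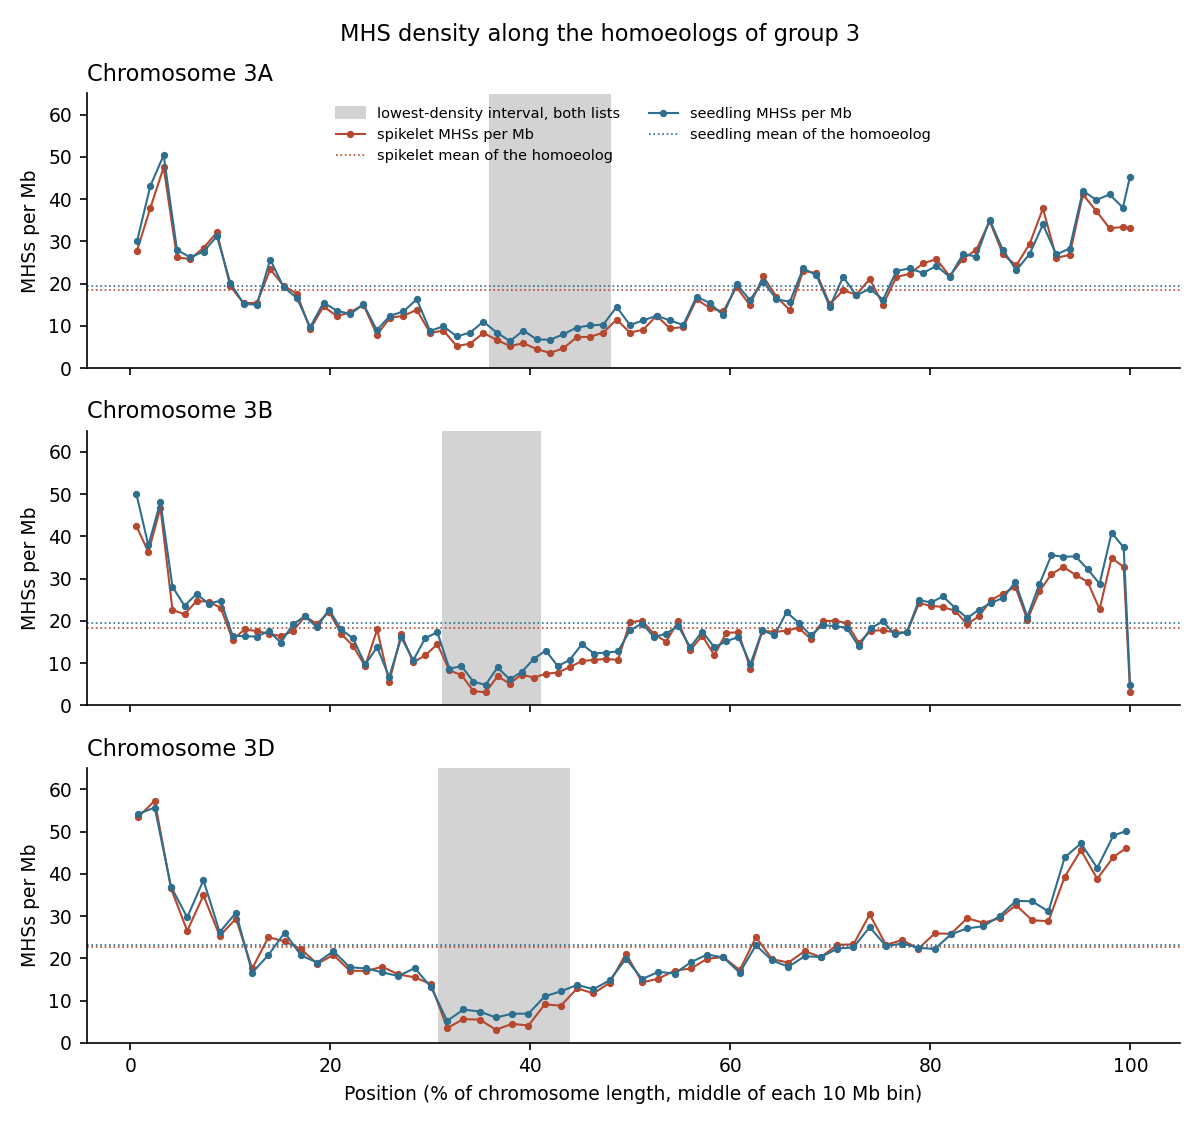
MHSs per Mb in 10 Mb bins against position as a percentage of chromosome length, for 3A, 3B and 3D, in the spikelet (red) and the seedling (blue). Dotted lines are the means of each homoeolog, and grey marks the lowest-density interval of both lists, with 5.97 spikelet and 8.36 seedling MHSs per Mb on 3A, 6.0 and 7.83 on 3B and 5.53 and 7.94 on 3D.

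The lowest-density interval was defined as the run of neighbouring 10 Mb bins, both lists together, that contains the sparsest bin and stays under 0.5 of the mean density. It ran from 270 to 360 Mb on 3A, from 260 to 340 Mb on 3B and from 190 to 270 Mb on 3D. Its midpoint lay at 42.0% of the length of 3A, 36.1% of 3B and 37.4% of 3D. Together, both lists had 14.3, 13.8 and 13.5 MHSs per Mb there, or 0.378, 0.365 and 0.294 times the mean of the homoeolog. The intervals of 3A and 3B were thus as sparse as that of 3D in MHSs per Mb, and the contrast was deeper on 3D, whose mean was higher. The spikelet list on its own gave a longer interval on 3A, from 220 to 360 Mb, and on 3B, from 260 to 370 Mb, and the same interval on 3D. Gaps of at least 300 kb without an MHS of either list numbered 389 on 3A, 391 on 3B and 272 on 3D and took up 23.3%, 20.1% and 18.3% of the lengths. Of these gaps, 80, 71 and 78 lay in the lowest-density interval, or 20.6%, 18.2% and 28.7%. The interval was chosen for its low count, so gaps are expected there. On the other chromosomes this share ranged from 5.29% on 7B to 38.7% on 6D.

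The outermost 10% at either end of the homoeologs held more MHSs than the 20% of even placement. In the spikelet, 34.9% of the MHSs of 3A (34.1 to 35.7), 32.5% of 3B (31.7 to 33.2) and 34.1% of 3D (33.3 to 34.9) lay there, and in the seedling 34.9% (34.1 to 35.6), 33.8% (33.0 to 34.5) and 35.2% (34.4 to 36.0). The excess over even placement was 1.74, 1.62 and 1.71 times in the spikelet and 1.74, 1.69 and 1.76 times in the seedling. Both ends contributed. In the spikelet the first 10% held 2362 MHSs on 3A, 2483 on 3B and 2361 on 3D, and the last 10% held 2462, 2463 and 2379. In the seedling the last 10% held more than the first on each homoeolog, with 2611 against 2475 on 3A, 2799 against 2689 on 3B and 2588 against 2439 on 3D. The excess at the ends ranged from 1.36 to 1.95 times over the 18 other chromosomes in the spikelet and from 1.35 to 1.92 times in the seedling, with medians of 1.70 and 1.72.

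The first 10 Mb differed between the homoeologs. 3A had 27.8 spikelet and 30.0 seedling MHSs per Mb there, 3B had 42.5 and 50.1, and 3D had 53.5 and 54.2. On 3A, the stretch from 1942435 to 5693653 of part 1 (IWGSC version 1.0), 3.75 Mb long, held 1 spikelet MHS and 0 seedling MHSs. The same distance from the start held 173 spikelet and 213 seedling MHSs on 3B and 202 and 210 on 3D, without alignment of the homoeologs. The 1 MHS of the 3A stretch, from 3091748 to 3092074, had a fold of 3.88 and a pileup of 13 reads. Its background was 2.60 reads, the lowest value of the spikelet list, which was not limited to this MHS. This MHS divided the stretch into gaps of 1.15 and 2.60 Mb. The second was the longest MHS-free gap of all 21 chromosomes, ahead of 2.17 Mb on 5D. On either side of the stretch 3A was dense, with 46.8 spikelet and 63.8 seedling MHSs per Mb before it and 43.2 and 40.9 after it up to 10 Mb. Without the stretch, the first 10 Mb of 3A had 44.3 spikelet and 48.0 seedling MHSs per Mb.

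**Figure D3:**
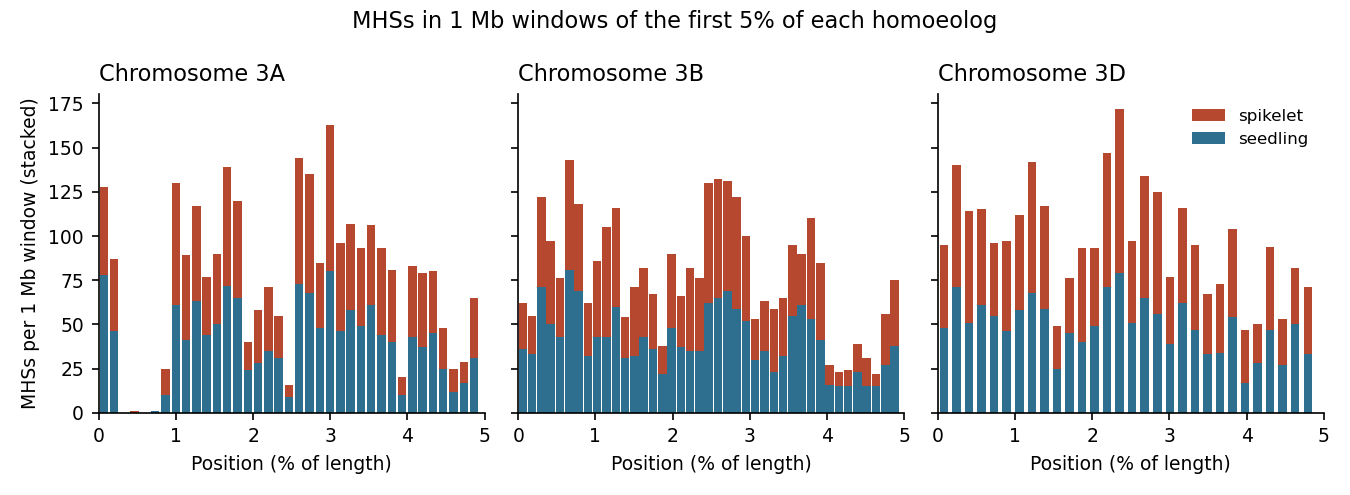
MHSs of the spikelet (red, upper part of each bar) and the seedling (blue, lower part) in 1 Mb windows over the first 5% of each homoeolog. On 3A, 4 of 37 windows held fewer than 10 MHSs of both lists and 2 held 0, while the emptiest window held 22 on 3B and 47 on 3D.

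The outermost sequence also differed in which list reached furthest. At the start of 3D, 3 seedling MHSs, the first from 5031 to 5504 of part 1, preceded the first spikelet MHS at 299023. At the start of 3B, 1 spikelet MHS from 64097 to 64296 of part 1 preceded the first seedling MHS at 190831. On 3A the first MHSs of the lists overlapped, from 37630 to 38390 of part 1 in the spikelet and from 37601 to 38373 in the seedling. At the far end, the last MHSs of the lists overlapped on 3A and 3B, and 2 seedling MHSs followed the last spikelet MHS of 3D.

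An MHS was taken as tissue-only when it overlapped no MHS of the other list by 1 bp or more. In the spikelet list 4350 MHSs of 3A, 5072 of 3B and 4559 of 3D were spikelet-only, which is 31.4% (30.7 to 32.2), 33.3% (32.6 to 34.0) and 32.8% (32.0 to 33.6), against 32.6% over all 21 chromosomes. In the seedling list 5353 MHSs of 3A, 6312 of 3B and 5173 of 3D were seedling-only, which is 36.7% (35.9 to 37.5), 38.8% (38.1 to 39.6) and 36.2% (35.4 to 37.0), against 37.0% over all 21 chromosomes. The group as a whole, with 32.5% spikelet-only and 37.3% seedling-only MHSs, was thus close to the background. By this rule 3B had the highest share of the homoeologs in both lists, but among spikelet MHSs with strict lists (a q of at most 1e-05 in either tissue) 3D had 36.5% and 3B 36.2%. The 6 other B chromosomes reached 33.3% in the spikelet and 38.5% in the seedling, and 3B differed from the highest of them by less than its counting interval in either list.

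Most tissue-only MHSs lay more than 500 bp from any MHS of the other tissue. The median distance of a spikelet-only MHS to the nearest seedling MHS was 3.31 kb on 3A, 3.08 kb on 3B and 2.76 kb on 3D. Seedling-only MHSs lay further from the nearest spikelet MHS, at medians of 5.62, 7.22 and 5.41 kb. A distance of at most 500 bp to the other list was found for 15.1%, 14.2% and 15.6% of the spikelet-only and 14.0%, 11.9% and 13.3% of the seedling-only MHSs of 3A, 3B and 3D. The 18 other chromosomes ranged from 13.4% to 16.7% in the spikelet and from 10.8% to 14.2% in the seedling, so group 3 lay inside these ranges.

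Tissue-only shares changed along the homoeologs, and the seedling differed from the spikelet in the lowest-density interval. In that interval 50.3% of the seedling MHSs of 3A (46.7 to 53.8), 53.5% of 3B (49.6 to 57.4) and 54.8% of 3D (50.9 to 58.6) were seedling-only. Outside the interval and the outermost 10% at either end, which is named the rest here, the shares were 32.3%, 34.1% and 30.9%. Spikelet-only MHSs made up 28.3% of the interval on 3A (24.7 to 32.3), 39.6% on 3B (35.3 to 44.0) and 33.7% on 3D (29.5 to 38.2), against 28.2%, 30.2% and 29.8% in the rest. The sharpest single bins were 310 to 320 Mb on 3A, where 44 of 67 seedling MHSs were seedling-only, 340 to 350 Mb on 3B with 86 of 130, and 240 to 250 Mb on 3D with 44 of 69. The bin of 3B lies just beyond its lowest-density interval.

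Counted per Mb, common MHSs were about equally frequent in both lists of the interval and seedling-only MHSs outnumbered spikelet-only ones. On 3A the interval had 4.28 common spikelet and 4.16 common seedling MHSs per Mb, with 1.69 spikelet-only and 4.20 seedling-only ones. On 3B it had 3.63 and 3.64 common MHSs per Mb, with 2.38 spikelet-only and 4.19 seedling-only ones. On 3D it had 3.66 and 3.59 common MHSs per Mb, with 1.86 spikelet-only and 4.35 seedling-only ones. The ratio of spikelet to seedling MHSs was accordingly 0.714 in the interval of 3A, 0.767 on 3B and 0.696 on 3D, against 0.969, 0.967 and 1.01 in the rest. Each of the 9 bins of the interval on 3A, 8 on 3B and 8 on 3D held more seedling than spikelet MHSs. Over the whole homoeologs this was so in 53 of 75 full bins on 3A, 61 of 83 on 3B and 36 of 61 on 3D.

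By q and pileup, the MHSs of the interval were weaker than those of the rest in both lists. Of the seedling MHSs there, 55.2% on 3A, 54.5% on 3B and 51.0% on 3D had a q of 1e-05 or lower. In the rest it was 69.7%, 68.1% and 69.9%. The median seedling pileup was 21, 20 and 19 reads against 28, 27 and 28. Of the spikelet MHSs, 74.3%, 78.1% and 72.4% in the interval had such a q, against 82.8%, 81.2% and 82.5% in the rest. The median spikelet pileup was 28, 27 and 28 reads against 32 on each homoeolog. With only the seedling MHSs of a q of 1e-05 or lower, set against all spikelet MHSs, the seedling-only share in the interval was only 21.7% on 3A (18 to 25.9), 26.1% on 3B (21.7 to 31.0) and 22.8% on 3D (18.6 to 27.7). It was 16.9%, 17.4% and 16.8% in the rest under the same threshold. The difference between the interval and the rest, 17.9, 19.4 and 23.9 percentage points over all MHSs, was thus 4.82, 8.69 and 6.07 points among the strong ones. The spikelet-only difference turned negative on 3A, at -6.56 points, and on 3D, at -3.78 points, and was 5.05 points on 3B. When this threshold was applied to either list, the ratio of spikelet to seedling MHSs in the interval was 0.961 on 3A, 1.10 on 3B and 0.988 on 3D, against 1.15, 1.15 and 1.19 in the rest, so that the ratio in the interval changed sides on 3B only and stayed below that of the rest on each homoeolog.

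**Figure D4:**
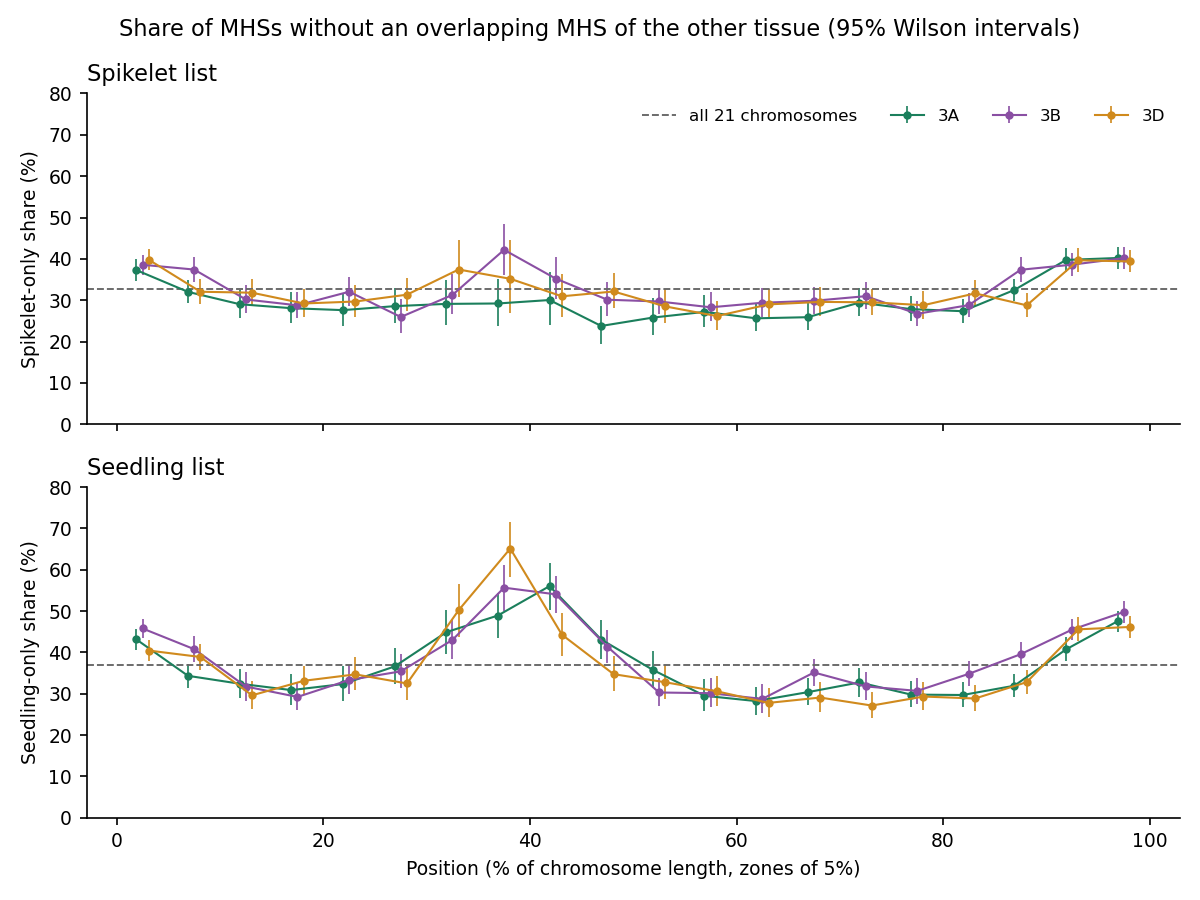
Share of MHSs that overlap no MHS of the other list, in zones of 5% of the chromosome length, for the spikelet list (top) and the seedling list (bottom), with 95% Wilson intervals and the share over all 21 chromosomes as a dashed line. The seedling-only share peaked at 56.0% on 3A, 55.7% on 3B and 65.1% on 3D in zones between 35% and 45% of the length and was higher at both ends than in the arms.

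The other chromosomes showed the seedling pattern as well. The seedling-only share was higher in the lowest-density interval than in the rest on all 3 homoeologs and on all 18 other chromosomes, where the median difference was 19.4 percentage points and the range 12.2 to 23.4. The difference of 23.9 points on 3D lay just above that range and those of 3A and 3B inside it. The spikelet-only share was higher in the interval than in the rest on 16 of the 18 others. There the median difference was 4.90 percentage points and the range -1.95 to 9.76. The spikelet differences of group 3, from 0.15 to 9.35 points, lay inside this range. The ratio of spikelet to seedling MHSs in the interval ranged from 0.677 to 0.798 over the 18 others.

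Both ends were rich in tissue-only MHSs in either list. In the first 10%, 35.0% of the spikelet MHSs of 3A (33.1 to 37.0), 38.1% of 3B (36.2 to 40.1) and 37.0% of 3D (35.1 to 38.9) were spikelet-only, and in the last 10% it was 40.0%, 39.4% and 39.5%. Seedling-only shares were 39.5%, 44.0% and 39.9% in the first and 44.7%, 47.7% and 45.9% in the last 10%. The last end thus had the higher share on each homoeolog in both lists, although the counting intervals of both ends overlapped in the spikelet on 3B and 3D. Over the 18 other chromosomes together, the last 10% had 35.2% spikelet-only and 39.4% seedling-only MHSs and the first 10% had 37.1% and 40.3%. Their rest had 30.7% and 34.0%. Both ends lay above the rest on 17 of these 18 chromosomes in the spikelet and on 15 in the seedling. Single chromosomes reached the level of group 3 in the last 10%, such as 4A with 40.3% spikelet-only and 48.8% seedling-only MHSs. The difference from the rest was above 8 percentage points at either end of each homoeolog in both lists among MHSs with a q of at most 1e-05, as the plot of all and strict MHSs shows.

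**Figure D5:**
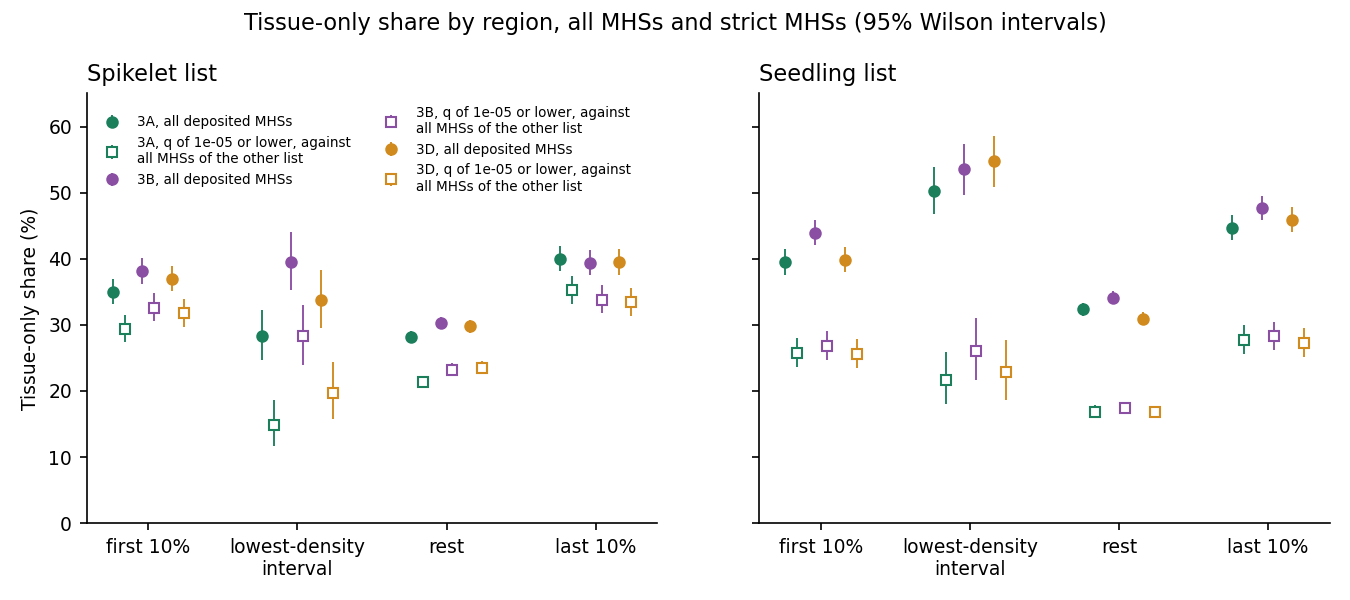
Tissue-only share in the first 10%, the lowest-density interval, the rest and the last 10% of each homoeolog, for all deposited MHSs (filled circles) and for strict MHSs, with a q of at most 1e-05, against all MHSs of the other list (open squares), with 95% Wilson intervals. In the seedling the interval had the highest share of the 4 regions over all MHSs, between 50.3% and 54.8%, whereas among strict MHSs it lay between 21.7% and 26.1%, below the last 10% with 27.3% to 28.3%.

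The densest windows lay near the start of each homoeolog. The 1 Mb window with the most MHSs of both lists was 22 to 23 Mb on 3A, with 83 spikelet and 80 seedling MHSs, 5 to 6 Mb on 3B, with 62 and 81, and 14 to 15 Mb on 3D, with 93 and 79. These windows lay at 2.93%, 0.602% and 2.27% of the length and held 5.26, 4.21 and 4.20 times the median window of their homoeolog. Their composition differed, since 41 of the 81 seedling MHSs in the window of 3B were seedling-only, against 20 of 80 on 3A and 13 of 79 on 3D. Of the densest 5% of windows, 84.2% of 38 on 3A, 90.5% of 42 on 3B and 90.3% of 31 on 3D lay in the outermost 10% at either end.

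At 100 kb, 2 dense windows were made up mostly of spikelet-only MHSs. The window with the most spikelet MHSs on 3B, at 201.5 Mb, held 28, of which 22 were spikelet-only, beside 8 seedling MHSs. The background of its spikelet MHSs had a median of 39.9 reads, against 5.68 in the whole spikelet list, and that of its seedling MHSs was 4.26 reads. A window of 3A at 672.7 Mb held 21 spikelet MHSs, 18 of them spikelet-only, beside 5 seedling MHSs, with median backgrounds of 16.8 and 13.0 reads. Both windows therefore combine many spikelet peaks with a raised local background, whose part in the number of peaks was not tested.

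Neighbouring MHSs that were all tissue-only, with no MHS of the other list between them, formed runs. The longest spikelet-only run had 18 MHSs on 3A (218772529 to 218812886 of part 2), 15 on 3B (92165140 to 92308028 of part 1) and 13 on 3D (25594718 to 25694871 of part 2). They spanned 40.4, 143 and 100 kb and had median backgrounds of 17.4, 11.9 and 6.46 reads, or 3.06, 2.09 and 1.14 times the median of the list. The run of 3A lies in the dense window at 672.7 Mb. The longest seedling-only run had 9 MHSs on 3A (277249021 to 277446795 of part 2), 12 on 3B (338798483 to 340097072 of part 1) and 10 on 3D (242680643 to 243775092 of part 1). These runs of 3B and 3D lay in the lowest-density interval and spanned 1.30 and 1.09 Mb, with backgrounds of 2.83 and 2.64 reads. A second run of equal length lay in the last 10% of both, with 12 MHSs over 143 kb on 3B (377079015 to 377222500 of part 2) and 10 over 261 kb on 3D (135768380 to 136029353 of part 2), and backgrounds of 3.28 and 4.14 reads. The longest seedling-only runs of all 3 homoeologs thus had a background below the list median of 5.48 reads, and the longest spikelet-only runs one above the list median of 5.68 reads. The lowest background of any seedling MHS was 2.64 reads, so that the run of 3A, at 2.66 reads, and that of 3D in the lowest-density interval were at or next to this minimum. Runs of at least 5 MHSs numbered 28, 29 and 31 in the spikelet and 50, 70 and 56 in the seedling of 3A, 3B and 3D. On the 18 other chromosomes they numbered 13 to 37 in the spikelet and 32 to 73 in the seedling. The longest spikelet-only run there had 73 MHSs, on 1A.

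Apart from the start of 3A, the longest gap without an MHS of either list lay inside the lowest-density interval of each homoeolog. The interval was chosen for its low count. The longest gap of 3B ran from 292169277 to 293324357 of part 1 (1.16 Mb) and that of 3D from 201117993 to 202226324 of part 1 (1.11 Mb). On 3A, the longest gap after that at its start ran from 318782947 to 320147809 of part 1 (1.36 Mb). Gaps of over 1 Mb numbered 5 on 3A, 4 on 3B and 3 on 3D.

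A fold over the local background of 12 or more was reached by 43 spikelet MHSs of 3A, 66 of 3B and 52 of 3D, or 0.311%, 0.433% and 0.374%, against 0.363% of all spikelet MHSs. In the seedling 32, 37 and 23 MHSs reached it, or 0.219%, 0.228% and 0.161%, against 0.220% of all seedling MHSs. None of the 92 seedling MHSs was seedling-only (0 of 92, which at 3 counts of the total allows a share of up to 3.26%, and by the Wilson interval up to 4.01%), whereas 47 of the 161 spikelet MHSs, or 29.2% (22.7 to 36.6), were spikelet-only. These 47 lay at a median of 30.2 kb from the nearest seedling MHS. On the 18 other chromosomes the spikelet-only share was 26.7% (23.8 to 29.7) and the seedling-only share 0.368% (0.101 to 1.33), so that group 3 was close to them.

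The largest folds of 3A in the spikelet were 26.6 (117283156 to 117283543 of part 2, pileup 100), 24.9 (224808672 to 224809162 of part 1, pileup 102) and 24.8 (308995699 to 308996080 of part 1, pileup 201). The first and the second overlapped the seedling MHSs with the second and first largest fold of 3A, 19.8 and 20.9. The third lay in the lowest-density interval and was spikelet-only, with the nearest seedling MHS 30.2 kb away. The third seedling MHS by fold, at 15.6 (73399192 to 73399613 of part 2), overlapped a spikelet MHS with a fold of 10.9.

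On 3B the spikelet led with 27.8 (132872980 to 132873348 of part 1), 25.9 (191155339 to 191155705 of part 2) and 24.1 (388899263 to 388899628 of part 1). The first overlapped a seedling MHS with a fold of 22.3, the second was spikelet-only with no seedling MHS within 28.3 kb, and the third overlapped one with a fold of only 5.77. The seedling led with 24.4 (321067233 to 321067855 of part 2), 24.3 (241590927 to 241591303 of part 1) and 23.4 (348172580 to 348173018 of part 2), and all 3 overlapped a spikelet MHS, with folds of 18.8, 23.5 and 4.63. In the last of these pairs the spikelet pileup of 173 reads was above the seedling pileup of 163 although its fold was lower.

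On 3D the 2 largest spikelet folds, 26.9 (121137104 to 121137506 of part 2, pileup 203) and 19.9 (77469971 to 77470355 of part 2, pileup 93), were both spikelet-only, at 27.5 and 19.2 kb from the nearest seedling MHS. The third, at 18.6 (70818205 to 70818608 of part 1), overlapped a seedling MHS with a fold of 4.67. The seedling folds of 20.4 (393045709 to 393046213 of part 1), 15.2 (96618784 to 96619475 of part 1) and 14.1 (168492443 to 168492922 of part 1) all overlapped spikelet MHSs, with folds of 13.1, 10.3 and 14.4. Each homoeolog thus had a spikelet-only MHS among its 3 largest spikelet folds and no seedling-only MHS among its 3 largest seedling folds.

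Wide MHSs of at least 1 kb were more frequent in the seedling. They numbered 167 on 3A, 213 on 3B and 178 on 3D in the spikelet, or 1.21%, 1.40% and 1.28%, against 1.20% of all spikelet MHSs. In the seedling they numbered 342, 361 and 350, or 2.34%, 2.22% and 2.45%, against 2.28% of all seedling MHSs. Of these, 10 of 167, 9 of 213 and 13 of 178 in the spikelet were tissue-only. In the seedling 16 of 342, 11 of 361 and 12 of 350 were. The other chromosomes had from 2 (of 208 on 2B) to 20 (of 242 on 2D) in the spikelet. In the seedling they had from 6 (of 297 on 4A) to 18 (of 310 on 6B), so group 3 lay inside these ranges. The widest spikelet MHS had 2333 bp on 3A (139207944 to 139210276 of part 2), 2075 bp on 3B (309673349 to 309675423 of part 2, spikelet-only) and 2067 bp on 3D (405850803 to 405852869 of part 1). The widest seedling MHS had 2126 bp on 3A (84040204 to 84042329 of part 1), 2046 bp on 3B (18671125 to 18673170 of part 1) and 2351 bp on 3D (158814216 to 158816566 of part 1), and each of these overlapped a spikelet MHS. The median width was 338, 334 and 337 bp in the spikelet and 354, 347 and 357 bp in the seedling.

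Where exactly 1 spikelet MHS and 1 seedling MHS overlapped each other, their summit pileups were close to balanced on all 3 homoeologs. Over all MHSs of the group the median pileup was 31 reads in the spikelet and 26 in the seedling. There were 8786 such pairs on 3A, 9426 on 3B and 8647 on 3D, with median pileups of 35, 34 and 35 reads in the spikelet and 33, 32 and 32 reads in the seedling. The median log2 ratio of spikelet to seedling pileup, with 1 added to each, was 0.03 on 3A, 0.05 on 3B and 0.05 on 3D, and its quartiles on 3A were -0.32 and 0.38. The median fold was higher in the spikelet, at 5.04 against 4.65 on 3A, 5.0 against 4.60 on 3B and 4.96 against 4.60 on 3D. In the lowest-density interval the median log2 ratio was 0.00 on 3A (363 pairs), 0.05 on 3B (274) and 0.04 on 3D (273). The pairs leave out every tissue-only MHS, so these ratios cannot speak to the larger number of seedling MHSs there. The lists were not scaled to each other, so the level of the log2 ratios and of these shares also holds any difference in depth.

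The density profiles of the homoeologs, with each chromosome cut into 50 bins of 2% of its length, were alike. Over these bins the Spearman correlation was 0.880 between 3A and 3B, 0.936 between 3A and 3D and 0.876 between 3B and 3D. Without the outermost 10% at either end, over 40 bins, it was 0.783, 0.902 and 0.779, against a median of 0.821 (0.666 to 0.881) for the pairs within the other groups and 0.719 (0.453 to 0.892) for the pairs across groups, so that 2 of the 3 pairs of group 3 lay below the median of the other groups. The 18 pairs within the other groups had a median of 0.877 over 50 bins (0.786 to 0.918), and the 54 pairs of a chromosome of group 3 with one of another group had a median of 0.829 (0.681 to 0.935). The pair of 2D and 3D reached 0.935, close to 3A and 3D, so likeness was not limited to homoeologs. All of these profiles share the dense ends and the sparse middle, and neighbouring bins are not independent.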

How the data were processed

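MH-seq was made from spikelets and seedlings of Chinese Spring, and the authors merged 2 biological replicates per tissue. They trimmed the reads with fastp, mapped them to version 1.0 of the IWGSC reference sequence with bowtie2, removed duplicates with Sambamba, kept mapping qualities of at least 20 and ran MACS2 (version 2.0) at a stated q of 0.01. The 1 deposited list per tissue nevertheless holds 210 spikelet and 955 seedling MHSs of group 3 with a q above 0.01, and all were kept. The score deposited by the authors is the whole part of 10 times the −log10 q. The fold is the ratio deposited by the authors of the summit pileup plus 1 to the local background plus 1. For each peak the authors also deposited the −log10 q-value and −log10 p-value. Total read depth is unknown from the lists.

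Part 2 of each chromosome was placed after part 1, with part lengths taken from the last MHS end over both lists, so that sequence after it is left out and bins across the join may be shifted. Pileup and background were solved from fold and p, and the p was met within 0.01 on the −log10 scale for 100% of the MHSs. Shares have Wilson intervals and ratios Poisson intervals, which treat MHSs as independent. The members, lists and regions were chosen with earlier results of these data known. MHSs were named by rule, as the 3 largest by fold and the widest of each list, and the longest run and gap of each homoeolog. The 100 kb windows, the stretch at the start of 3A, the second gap of 3A and the outermost MHSs were picked with their values in view. The lowest-density interval was itself chosen by its low count. The overlap, distance, pileup and interval functions were tested on simulated data. The gene table at hand is of version 2.1 of the reference, so genes and sequences near MHSs were not analysed here. Calculations ran in Python 3.11.15 with scipy 1.17.1, pandas 2.3.3 and numpy 2.4.6, and figures were drawn with matplotlib 3.10.9. The alternatives comprised stricter q thresholds, other overlap rules, wider and narrower ends, other bins and windows, and covered base pairs in place of counts.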

Additional observations from a re-analysis of the deposited data

How the results depend on the processing

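Density ratios between the homoeologs changed least. All 6 stayed within their counting intervals with a q of at most 0.001 and with covered base pairs, and at a q of at most 1e-05 only those of 3B over 3A (0.979) and 3D over 3B (1.21) in the seedling left them. The excess at the ends depended on their width. For the outermost 5% it was 1.95, 1.80 and 2.01 times in the spikelet and 2.04, 1.92 and 2.04 times in the seedling of 3A, 3B and 3D, and for the outermost 20% it was 1.47, 1.38 and 1.44 times and 1.44, 1.38 and 1.44 times. At a q of at most 1e-05 it left its interval on 3B in the spikelet (1.58) and on 3A, 3B and 3D in the seedling (1.64, 1.55 and 1.64).

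Tissue-only shares moved under every alternative. An overlap of at least 50% of the MHS gave 36.2%, 38.1% and 37.8% in the spikelet and 44.8%, 46.3% and 43.9% in the seedling of 3A, 3B and 3D. A reciprocal overlap of 50% gave 44.7%, 45.7% and 45.3% and 47.6%, 49.1% and 46.8%. Strict lists, with a q of at most 1e-05 in either tissue, gave 34.9%, 36.2% and 36.5% and 26.2%, 27.3% and 25.8%, so that the spikelet then had the higher share on all 3 homoeologs and 3D in place of 3B the highest spikelet share.

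The midpoint of the lowest-density interval of 3A was 40.0% of the length with 5 Mb bins, 38.6% with 20 Mb bins, 38.6% in the spikelet list and 40.6% in the seedling list. That of 3B was 37.3% with 20 Mb bins and 37.9% in the spikelet list, and that of 3D was 35.3% with 5 Mb and 35.7% with 20 Mb bins. The densest window of 500 kb lay inside the densest 1 Mb window on 3A and 3D but started at 2 Mb on 3B. With bins of 5% of the length, the Spearman correlation of 3A and 3B was 0.931.

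The ratios of spikelet to seedling MHSs were recomputed after the data had been seen. At a q of at most 0.001 they turned above 1 on the whole of 3A, 3B and 3D (1.01, 1.01 and 1.04), in the rest of 3A and 3B (1.03 and 1.03), in the last 10% of 3A and 3D (1.03 and 1.01) and in the first 10% of 3B (1.00), and also in the first 10% of 3A (1.01) and 3D (1.04), whose intervals over all MHSs included 1. At a q of at most 1e-05 they were 1.16, 1.16 and 1.19 over the whole homoeologs, 1.15 and 1.15 in the rest of 3A and 3B, 1.24, 1.20 and 1.21 in the last 10% of 3A, 3B and 3D, 1.17, 1.18 and 1.21 in the first 10% of 3A, 3B and 3D and 1.10 in the lowest-density interval of 3B. The cause of these changes was not tested.

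No paired analysis was possible because 1 list stands for each tissue. The replicates were merged before deposit, so the spread between plants or libraries is unknown. The peaks say nothing of reads outside them, and an MHS-free stretch cannot be told apart from sequence to which no reads of sufficient mapping quality were assigned. Chromosome lengths end at the last MHS.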
